A study of Mus musculus with 7 samples.

Results

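The mitochondrial solute carriers of the Slc25 family were measured in mouse liver as 44 genes of a table of 21706. They were taken by symbol, as every gene named Slc25a followed by a number, except Slc25a1, Slc25a15 and Slc25a20. Hepatic mRNA came from male C57BL/6 mice, 8 weeks old at the start, that received a control oligonucleotide (Control Oligo, n = 4) or a synthetic tsRNA-Glu-CTC oligonucleotide (tsRNA-Glu-CTC Oligo-1, n = 3) by intraperitoneal injection for 2 weeks. Glutamate transfer RNA is the source of this small RNA, tsRNA-Glu-CTC, and the oligonucleotide was given to the whole animal, not to hepatocytes alone. Both groups were fed semisynthetic chow with little fat and little cholesterol and were fasted before tissue collection. Each library is 1 mouse. Expression was given as TPM (transcripts scaled to a fixed library total), a length-corrected share of each library, so levels of different carriers can be compared.

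Slc25 proteins sit mostly in the inner mitochondrial membrane, where each carries a small set of metabolites between cytosol and matrix. Family members exchange ADP for ATP, import phosphate, and move dicarboxylates, amino acids, nucleotides, iron and vitamin-derived cofactors. In liver, they link mitochondria to gluconeogenesis, the urea cycle, the malate-aspartate shuttle and lipid synthesis. The comparison addresses whether carrier mRNA differed in livers of mice given the tsRNA-Glu-CTC oligonucleotide.

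The liver label held, as 10 of 10 hepatocyte markers were above 1 TPM in every library. Genes above 0 TPM numbered 13046 in control 3 and 15261 to 16089 in the rest. Among the 7 libraries, controls 1 and 4 stood apart. Over the 10455 tested genes their mutual correlation was 0.988, and each correlated with the rest at 0.928 to 0.947. In 51.5% of all tested genes both lay above every other library, and in 65.0% both lay above controls 2 and 3 (below them in 8.04%). Summed markers of Kupffer cells and macrophages, 9 of 12 of them above 1 TPM in every library, reached 819 and 1039 TPM there, against 108 to 178 TPM in the rest. Those of stellate cells and fibroblasts (7 of 10) reached 372 and 344 TPM, against 94.1 to 106 TPM. Major urinary protein (Mup) genes held 1.44% and 1.63% of the listed TPM there and 8.45% to 12.7% elsewhere. For each carrier given library by library below, the fitted value without these 2 libraries is therefore also given, an alternative chosen after they were seen.

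Of the 44 carriers, 35 passed the filter for testing (3 or more libraries with 1 TPM or more) and 2, Slc25a41 and Slc25a54, were listed at 0 throughout. The mRNA pool was uneven. Slc25a47, a carrier found mainly in liver, had the highest level in every library, at 514.1 to 762.7 TPM. It made up 28.3% of the mean TPM summed over the 44 carriers. Slc25a5, which encodes the ADP/ATP carrier ANT2, followed at 368.2 to 445.3 TPM. Slc25a39, a carrier needed for glutathione import in mammalian cells, was at 220.1 to 384.2 TPM and its range overlapped that of Slc25a5. Slc25a3, the phosphate carrier, was at 185.7 to 245.9 TPM. Slc25a22, a glutamate carrier, at 77.5 to 196.4 TPM overlapped Slc25a3, and Slc25a10, the dicarboxylate carrier, lay within the range of Slc25a22 at 89.1 to 110.5 TPM. Together these 6 genes held between 75.6% and 77.3% of the summed carrier TPM in each library. The carriers that followed, Slc25a25, Slc25a13, Slc25a23, Slc25a51 and Slc25a11, had means between 48.9 and 80.2 TPM.

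**Figure D1:**
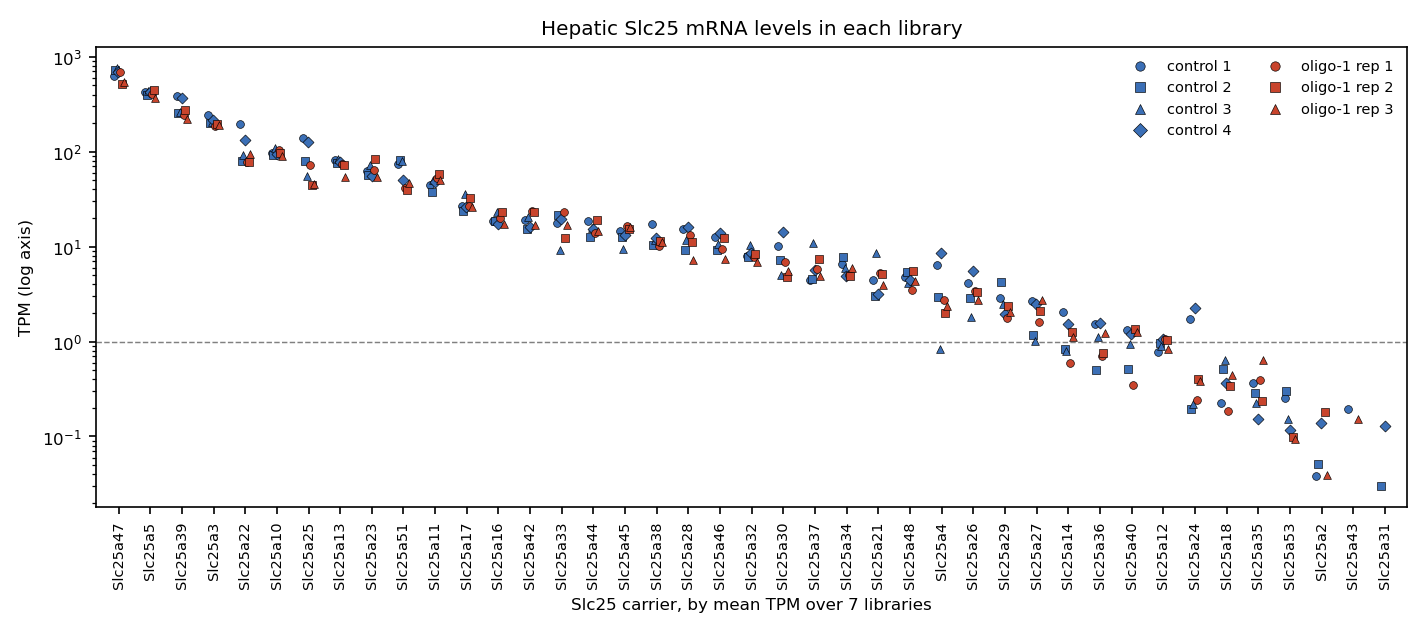
TPM of 41 Slc25 carriers (log axis) in the 4 control libraries (blue) and the 3 oligo-1 libraries (red), ordered by mean, with a dashed line at 1 TPM and values of 0 left out. Slc25a47 is highest in every library, and the controls 1 and 4 (circle and diamond) separate from the other controls for Slc25a22, Slc25a25, Slc25a4 and Slc25a24.

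Across the whole family, the summed carriers took a smaller share of the listed TPM with oligo-1. Their summed share of the listed TPM was 0.304%, 0.263%, 0.274% and 0.292% in controls 1 to 4. In oligo-1 libraries 1 to 3 it stood at 0.254%, 0.245% and 0.224%. Every oligo-1 library thus lay below every control, with means of 0.283% ± 0.0183 (SD, n = 4) and 0.241% ± 0.0152 (SD, n = 3). The groups stayed apart when the Mup genes and Alb, which take large and variable shares, were left out of the total (0.318% ± 0.00736 and 0.285% ± 0.0174, SD). In TPM, the largest parts of the difference came from Slc25a47 (a difference in the mean of -120.2), Slc25a39 (-71.1), Slc25a25 (-45.7) and Slc25a22 (-41.8). The last 3 of these were highest in controls 1 and 4. Without controls 1 and 4 the difference in share was -0.027 percentage points, against -0.042 with all 7 libraries. A fitted value below 0 was found for 73.6% of all tested genes, so lower values in deposited TPM were not particular to the carriers. After TMM-type scaling, the carriers' median log2 fold change was 0.05, and 0 carriers had all oligo-1 libraries below all controls. Slc25a47, the largest part, was then at 484.9 to 882.5 scaled TPM in controls and 512.9 to 737.7 with oligo-1. A share of the library does not change under such scaling, so the separation is shown for shares and not for scaled levels. A sum over chosen members is a description, and no test was applied to it.

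**Figure D2:**
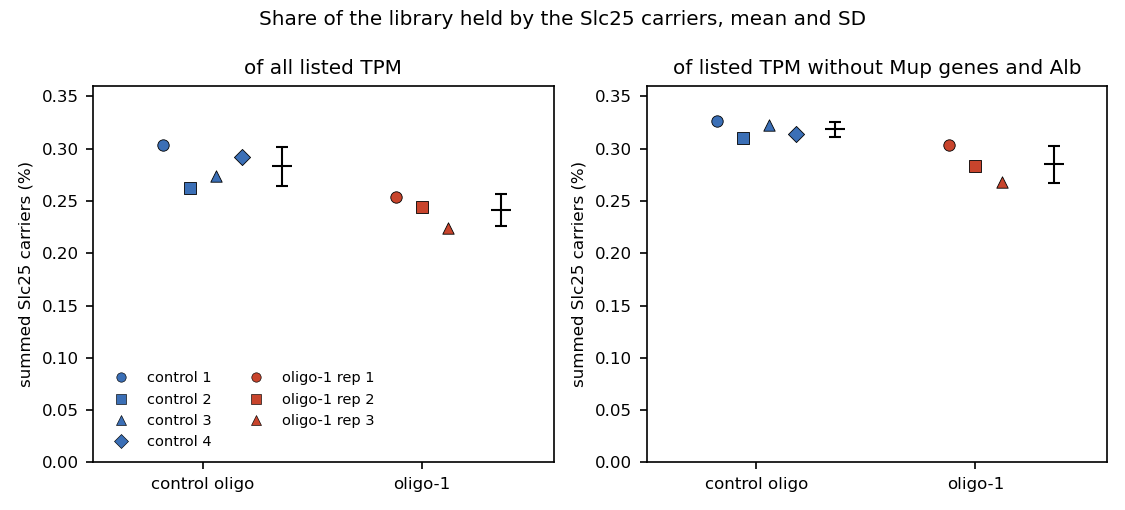
Summed TPM of the Slc25 carriers as a percent of all listed TPM (left) and of the listed TPM without the Mup genes and Alb (right), with points for libraries and bars for mean ± SD per group. In both panels the 3 oligo-1 libraries lie below the 4 controls, at 0.224% to 0.254% against 0.263% to 0.304% on the left.

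Gene by gene, no carrier passed the test over all genes. limma-trend on log2(TPM + 1), a scale that understates changes of low genes, called 0 of 35 carriers at an adjusted p below 0.05, as it did for 0.00% of all genes, and the smallest adjusted p of a carrier was 0.563. At an unadjusted p below 0.05, 2 of 35 carriers (5.71%) were lower with oligo-1, Slc25a51 and Slc25a25, against 4.25% of all tested genes, and 0 were higher, against 1.81%. A fitted value below 0 was found for 24 carriers (68.6%) and for 73.6% of all tested genes, and one above 0 for 11 carriers (31.4%) and 26.4% of all. The median log2 fold change was -0.12 for the carriers and -0.16 for all tested genes, so the carriers as a list lay close to the table as a whole. After TMM-type scaling, under which the median of all genes was 0.00, the carriers' median was 0.05. With thresholds of an unadjusted p below 0.01 and a fold above 1.5 applied to this limma fit, Slc25a51 was the only carrier on the lower side, against 0.832% of all tested genes, and 0 carriers met them on the higher side, against 0.641%. Slc25a51 met them in 1 of the 7 fits that left out 1 library (that without control 4) and did not after TMM-type scaling. All 3 oligo-1 libraries lay below all 4 controls in 3 carriers (8.57%), Slc25a51, Slc25a13 and Slc25a3, against 4.98% of all genes. They lay above all controls in 1 carrier (2.86%), Slc25a45, against 2.00%.

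**Figure D3:**
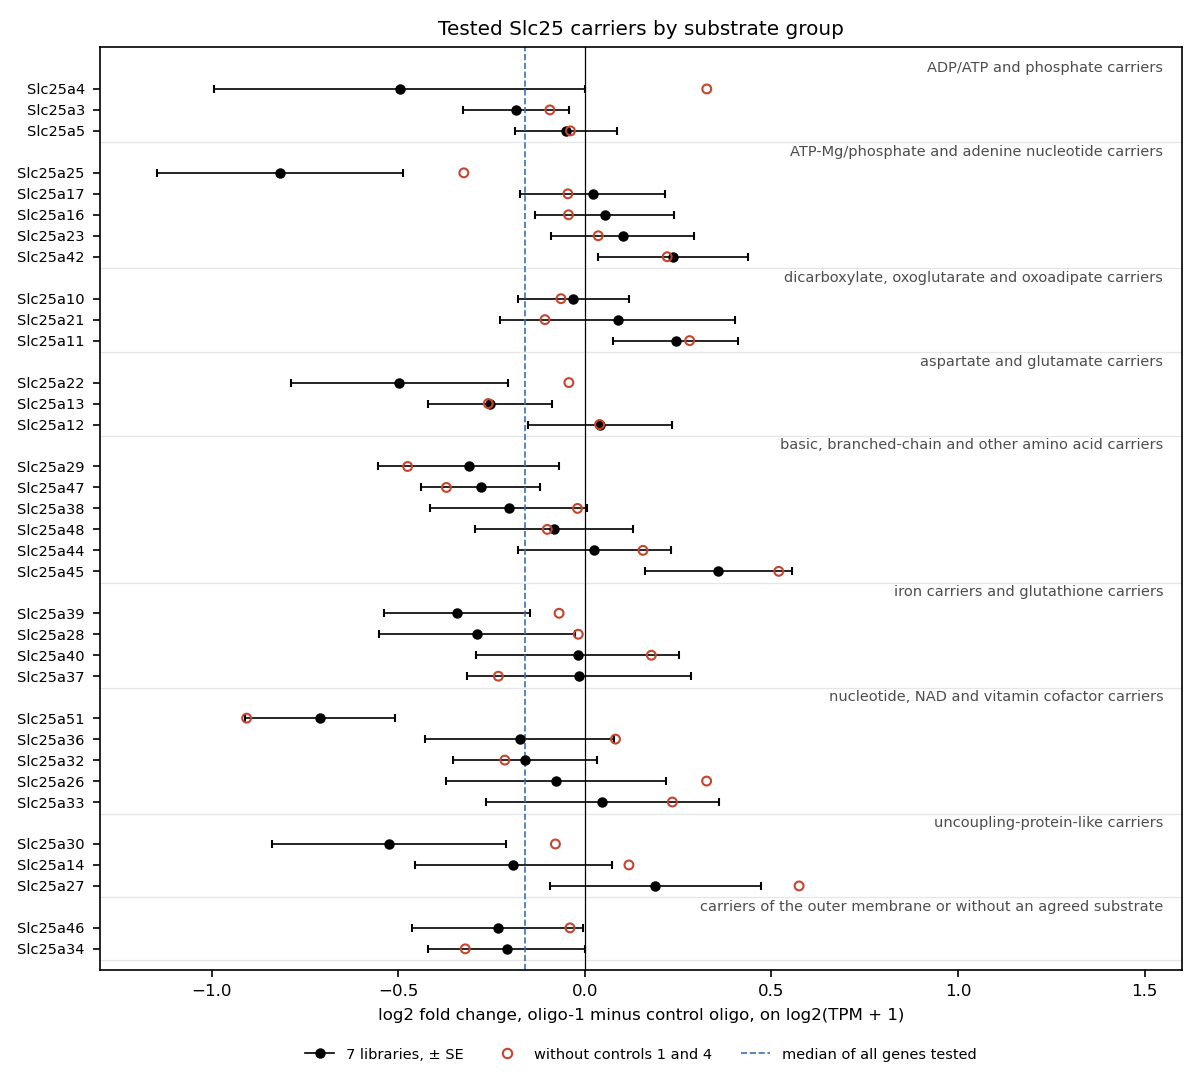
Log2 fold change of 34 tested carriers (oligo-1 minus control oligo on log2(TPM + 1)) with its limma SE (black), the value without controls 1 and 4 (open red) and the median of all tested genes (dashed, -0.16), by substrate group. Slc25a51 stays low without those libraries (-0.91), while Slc25a25, Slc25a22, Slc25a39 and Slc25a30 move toward 0.

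Slc25a51 encodes the carrier that brings NAD into mitochondria, as known from human cells (mm10 chromosome 4, 45395923 to 45408766). It was at 74.0, 82.1, 79.4 and 50.6 TPM in controls 1 to 4 and at 41.5, 39.6 and 47.1 TPM in oligo-1 replicates 1 to 3. The groups did not overlap, although control 4 came within a few TPM of the highest oligo-1 library. The mean was 71.5 ± 14.3 TPM in controls (SD, n = 4) against 42.7 ± 3.88 TPM (SD, n = 3), a 0.598-fold level. On the log2 scale the difference was -0.71 (SE 0.20, adjusted p = 0.563 over all genes). It lay between -0.86 and -0.64 with any 1 library left out, with an unadjusted p below 0.05 in 7 of 7 such fits and an adjusted p of 0.285 or more. Without controls 1 and 4 it was -0.91 (SE 0.16, adjusted p = 0.150), and this difference was as large without the 2 libraries that stood apart as with them. After TMM-type scaling it was -0.53 (adjusted p = 0.659), the unadjusted p was no longer below 0.05, and control 4 (41.1 scaled TPM) then fell within the oligo-1 range of 39.5 to 55.5 scaled TPM.

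Other carriers of nucleotides and cofactors differed less. Slc25a33 and Slc25a36, carriers of pyrimidine nucleotides, were at 0.05 (SE 0.31) and -0.17 (SE 0.25) on the log2 scale. Slc25a32, which carries folate or flavin, was at -0.16 (SE 0.19) and Slc25a26, the S-adenosylmethionine carrier, at -0.08 (SE 0.30). None of these 4 passed an unadjusted p of 0.05. Summed TPM of the group was 93.3 to 122.2 in controls and 71.9 to 83.8 with oligo-1, and Slc25a51 held most of that difference.

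Slc25a25 encodes a calcium-regulated exchanger of ATP-Mg for phosphate (mm10 chromosome 2, 32414487 to 32451445). It was at 138.3, 79.3, 55.2 and 126.3 TPM in controls 1 to 4 and at 72.7, 44.1 and 45.5 TPM in oligo-1 replicates 1 to 3. The groups overlapped, because control 3 lay below oligo-1 replicate 1. The mean was 99.8 ± 39.1 TPM in controls (SD, n = 4) against 54.1 ± 16.1 TPM (SD, n = 3), and the log2 fold change was -0.82 (SE 0.33, adjusted p = 0.768). Within the control group, libraries 1 and 4 were 1.97-fold above libraries 2 and 3. Without controls 1 and 4 the log2 fold change was -0.32 (SE 0.26, adjusted p = 0.765). An unadjusted p below 0.05 was found in 3 of the 7 fits that left out 1 library, those without control 2, control 3 or oligo-1 replicate 1, and the values of the 7 fits ran from -1.07 to -0.63.

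The gene has 3 annotated starts in RefSeq (GRCm38.p6, the build of mm10), each with a window of 250 bases before to 50 after the start. A full cAMP response element (CRE, TGACGTCA, identical on both strands) was found in the window of 1 of these starts, chr2:32424017-32424316 on the minus strand, at positions -150 to -143 relative to that start. That window is shown, with the CRE in capitals, because Slc25a25 was 1 of the 2 carriers at an unadjusted p below 0.05 and its other 2 windows held none of the motifs searched. Slc25a51, the other of these carriers, was not matched in the promoter table. The window of Slc25a45 (chr19:5877572-5877871, plus strand), the carrier with the opposite direction, is shown beside it and held none of the motifs searched, so it has no capitals.
Slc25a25: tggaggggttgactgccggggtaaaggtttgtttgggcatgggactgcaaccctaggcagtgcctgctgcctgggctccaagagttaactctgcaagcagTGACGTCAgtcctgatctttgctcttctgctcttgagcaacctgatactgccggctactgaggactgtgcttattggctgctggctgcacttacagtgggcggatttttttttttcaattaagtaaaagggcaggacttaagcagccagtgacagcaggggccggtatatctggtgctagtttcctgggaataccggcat
Slc25a45: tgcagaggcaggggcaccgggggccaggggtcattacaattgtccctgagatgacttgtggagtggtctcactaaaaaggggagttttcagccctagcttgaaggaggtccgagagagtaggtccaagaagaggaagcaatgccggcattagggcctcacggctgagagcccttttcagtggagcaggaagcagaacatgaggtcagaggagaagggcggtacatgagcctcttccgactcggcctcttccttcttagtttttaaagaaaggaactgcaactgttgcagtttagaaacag
The CRE was present in 2 of 42 carrier windows (4.76%, from 33 of the 44 carriers) and in 1.79% of all 32851 windows. The other carrier window with a CRE was that of Slc25a36, whose log2 fold change was -0.17 (SE 0.25). The E-box CACGTG was in 6 carrier windows (14.3%) and in 7.15% of all windows. Overlapping windows of Slc25a14 that held it were counted separately. The core of the NRF1 site, on either strand, was in 4.76% and 4.60%, and the sterol response core TCACNCCAC in 2.38% and 1.24%. Carrier windows had a median GC content of 59.0% against 52.7% for all windows. TPM summed per gene do not tell which start was used.

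**Figure D4:**
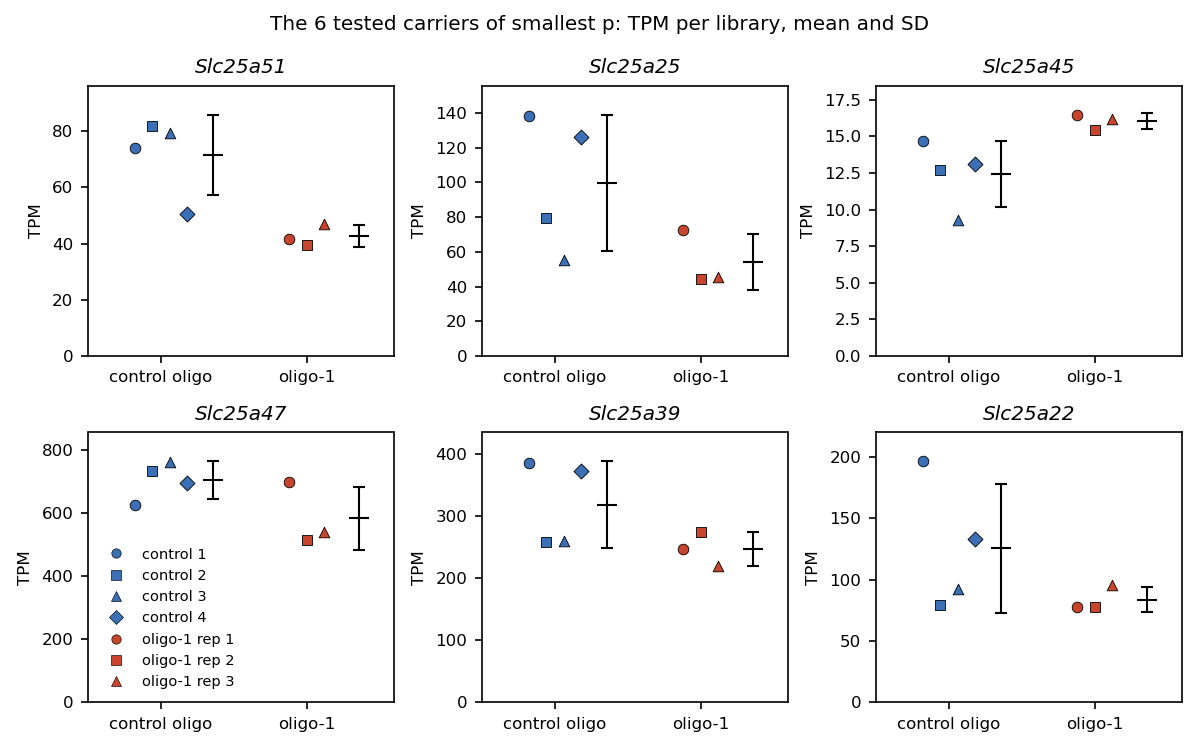
TPM per library of the 6 tested carriers of smallest p, with a linear axis from 0 and bars for mean ± SD per group (control oligo n = 4, oligo-1 n = 3). Slc25a51 and Slc25a45 do not overlap between groups, whereas Slc25a25, Slc25a39 and Slc25a22 are high in controls 1 and 4 and overlap otherwise.

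Among the other exchangers of adenine nucleotides and CoA, none passed an unadjusted p of 0.05. Slc25a23, a second ATP-Mg/phosphate carrier, averaged 61.8 ± 7.87 TPM in controls (SD, n = 4) against 67.0 ± 14.4 TPM (SD, n = 3). Slc25a42, a mitochondrial CoA carrier, differed by 0.24 (SE 0.20) on the log2 scale, and Slc25a17, which carries CoA and related cofactors in peroxisomes, 0.02 (SE 0.19). Slc25a16 was at 0.05 (SE 0.19). Within a library, the log2 ratio of Slc25a23 to Slc25a25 (on TPM + 1) hardly depends on scaling. It was -1.14, -0.47, 0.39 and -1.17 in controls 1 to 4 and -0.19, 0.89 and 0.25 with oligo-1, so control 3 lay inside the oligo-1 range. The difference in means was 0.92, and 0.36 without controls 1 and 4. The remaining paralogue, Slc25a24, was not tested. Its level was 1.71 TPM in control 1 and 2.26 TPM in control 4, and 0.194 to 0.403 TPM in the rest.

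The ADP/ATP and phosphate carriers form the bulk transport system of oxidative phosphorylation. Slc25a5 was at 424.4, 397.5, 436.1 and 422.3 TPM in controls 1 to 4 and at 406.5, 445.3 and 368.2 TPM with oligo-1. Its groups overlapped fully (log2 difference -0.05, SE 0.14, or -0.04 without controls 1 and 4), and its level varied less than that of the other 5 most abundant carriers. Slc25a3 was at 245.9, 200.7, 205.4 and 215.5 TPM in controls against 185.7, 196.2 and 189.0 TPM with oligo-1. All 3 oligo-1 values lay below the controls, but the log2 fold change of -0.18 (SE 0.14, adjusted p = 0.775) was close to that of the median gene. It was -0.09 without controls 1 and 4 and 0.00060 after TMM-type scaling.

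Slc25a4, which encodes ANT1, the ADP/ATP carrier of heart and skeletal muscle, was low in these livers. It was at 6.36, 2.92, 0.844 and 8.61 TPM in controls 1 to 4 and at 2.75, 2.01 and 2.39 TPM with oligo-1. The highest libraries were controls 1 and 4 and the lowest was control 3. A log2 difference of -0.50 (SE 0.50, adjusted p = 0.791) turned to 0.33 (SE 0.32) without controls 1 and 4. Summed markers of muscle were at 6.87, 4.23, 0.508 and 4.64 TPM in controls 1 to 4 and 3.02 to 4.70 TPM with oligo-1, 3 of 7 of them listed at 0 throughout and Ckm at 0.161 TPM or less in every library. The sum was carried by Mylpf and Des, and Des is also counted among the stellate cell markers. Acta1 was at 0.0942 TPM or less in every library. The part of muscle RNA in the Slc25a4 values was not tested. Slc25a31, the ADP/ATP carrier of testis, was at 0.128 TPM or less in every library.

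For aspartate and glutamate, the liver form is Slc25a13 (citrin), which serves the malate-aspartate shuttle and the urea cycle. It was at 82.1, 76.5, 83.9 and 77.0 TPM in controls 1 to 4 and at 75.1, 72.7 and 54.6 TPM with oligo-1. The groups did not overlap, yet oligo-1 replicates 1 and 2 were within 4 TPM of the lowest control, and the log2 fold change of -0.25 (SE 0.17, adjusted p = 0.775) did not pass. Leaving out oligo-1 replicate 3 gave -0.11, and leaving out controls 1 and 4 gave -0.26. Slc25a12, the paralogue of brain and muscle, was at 0.775 to 1.07 TPM. The log2 ratio of Slc25a12 to Slc25a13 (on TPM + 1) was -5.55 to -5.23 in controls and -5.20 to -4.93 with oligo-1, without overlap. The difference in means was 0.29, and 0.30 without controls 1 and 4. Slc25a12 itself differed by only 0.04 (SE 0.19) on this scale, so the ratio mainly repeats the Slc25a13 values.

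Slc25a22 was at 196.4, 79.3, 92.8 and 133.5 TPM in controls 1 to 4 and at 77.9, 77.5 and 95.6 TPM with oligo-1. Only controls 1 and 4 stood above the rest. This carrier differed by -0.50 on the log2 scale (SE 0.29, adjusted p = 0.768), and by -0.04 (SE 0.17) without controls 1 and 4. Its paralogue Slc25a18 was at 0.638 TPM or less throughout and was not tested. The log2 ratio of Slc25a18 to Slc25a22 overlapped between the groups, with a difference in means of 0.38, or -0.21 without controls 1 and 4.

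Slc25a47 and Slc25a45 were listed here with the carriers of other amino acids, a grouping that these data do not test. Their fitted values had opposite sign. Slc25a47 (mm10 chromosome 12, 108836046 to 108856815) was at 624.4, 732.5, 762.7 and 693.7 TPM in controls 1 to 4 and at 696.8, 514.1 and 538.5 TPM in oligo-1 replicates 1 to 3. Oligo-1 replicates 2 and 3 lay below all controls and replicate 1 lay among them. On the log2 scale the difference was -0.28 (SE 0.16, adjusted p = 0.768), and -0.37 (SE 0.17) without controls 1 and 4. Slc25a45, a little-studied member (mm10 chromosome 19, 5877808 to 5885878), was at 14.7, 12.7, 9.32 and 13.1 TPM in controls and at 16.5, 15.4 and 16.2 TPM with oligo-1. In deposited TPM it was the only tested carrier in which every oligo-1 library exceeded every control, and its mean was 12.5 ± 2.26 TPM in controls (SD, n = 4) against 16.05 ± 0.540 TPM (SD, n = 3). The log2 fold change of 0.36 (SE 0.20, adjusted p = 0.768) did not pass. It was 0.53 (adjusted p = 0.481) after TMM-type scaling and 0.52 (adjusted p = 0.438) without controls 1 and 4. The log2 ratio of Slc25a47 to Slc25a45 was 5.32 to 6.21 in controls and 4.97 to 5.32 with oligo-1, where control 1 lay just below oligo-1 replicate 1.

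Other members of this group showed less. Slc25a29, a carrier of basic amino acids, was at -0.31 (SE 0.24) on the log2 scale. Slc25a38, a glycine carrier needed for heme synthesis, was at -0.20 (SE 0.21), Slc25a44, which carries branched-chain amino acids in brown fat, at 0.03 (SE 0.21), and Slc25a48 at -0.08 (SE 0.21). Slc25a2 was at 0.181 TPM or less in each library.

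Glutathione and iron carriers were led by Slc25a39, at 384.2, 257.2, 258.9 and 371.8 TPM in controls 1 to 4 and at 246.3, 274.6 and 220.1 TPM with oligo-1. Again controls 1 and 4 were above the other 5 libraries, which overlapped. A log2 difference of -0.34 (SE 0.20, adjusted p = 0.768) was -0.07 (SE 0.16) without those controls. Its paralogue Slc25a40 was much lower, at 0.351 to 1.37 TPM, and differed by -0.02 (SE 0.27).

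The mitoferrins import iron for heme and iron-sulfur clusters. Slc25a37 (mitoferrin-1, the form of red cell precursors) was at 4.48, 4.59, 10.9 and 5.69 TPM in controls 1 to 4 and at 5.80, 7.35 and 4.93 TPM with oligo-1. Only control 3 was high. Its log2 difference was -0.02 (SE 0.30), or 0.24 without control 3 and -0.23 without controls 1 and 4. Slc25a28 (mitoferrin-2, the general form) was at 15.2, 9.26, 11.7 and 16.04 TPM in controls against 13.2, 11.3 and 7.27 TPM with oligo-1. The highest were again controls 1 and 4, and the log2 difference was -0.29 (SE 0.26), or -0.02 (SE 0.26) without them. Summed erythroid markers, of which 6 of 9 were above 1 TPM in every library and 1 was listed at 0, were at 386.8, 86.2, 110.5 and 1005 TPM in controls 1 to 4 and 123.3 to 174.5 TPM with oligo-1. The sum was carried by the 4 globin genes, which were highest in controls 1 and 4. The other erythroid markers above 1 TPM had their highest level in control 3, the library highest in Slc25a37, and their lowest in controls 1 and 4. Alas2, the heme synthesis enzyme of red cell precursors, was at 38.4 TPM in control 3 and at 23.7 and 20.4 TPM in controls 1 and 4. Klf1, an erythroid transcription factor, was at 4.70 TPM in control 3, against 2.14 and 1.74 TPM. The part of red cell RNA in these values was not tested.

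Carriers of dicarboxylates and oxoacids feed malate, succinate and oxoglutarate across the membrane. Slc25a10 was at 97.3, 92.0, 110.5 and 95.4 TPM in controls 1 to 4 and at 102.9, 97.8 and 89.1 TPM with oligo-1. The groups overlapped, with a log2 difference of -0.03 (SE 0.15), or -0.06 without controls 1 and 4. Slc25a11, the oxoglutarate/malate carrier, was at 44.6, 37.9, 50.9 and 47.9 TPM in controls and at 52.5, 58.3 and 50.2 TPM with oligo-1. Only control 3 reached the oligo-1 range. This gave a log2 difference of 0.24 (SE 0.17, adjusted p = 0.775), or 0.28 without controls 1 and 4. After TMM-type scaling it was 0.43 (adjusted p = 0.563) with no overlap between the groups. Slc25a21, the oxoadipate carrier, was at 0.09 (SE 0.31).

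Of the carriers that resemble uncoupling proteins, Slc25a30 was at 10.2, 7.27, 5.06 and 14.4 TPM in controls 1 to 4 and at 6.88, 4.79 and 5.60 TPM with oligo-1. Both libraries that stood apart were the highest, and the log2 difference of -0.52 (SE 0.31, adjusted p = 0.769) was -0.08 (SE 0.23) without them. Slc25a14 was at -0.19 (SE 0.26) and Slc25a27 at 0.19 (SE 0.28). Without controls 1 and 4, Slc25a27 was at 0.57 (SE 0.23, adjusted p = 0.478), though its level was at most 2.72 TPM. Slc25a46, an outer membrane protein of mitochondrial dynamics, was at -0.23 (SE 0.23), and Slc25a34, without an agreed substrate, at -0.21 (SE 0.21). The untested Slc25a35, Slc25a43 and Slc25a53 were at 0.636 TPM or less.

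The main axis of variation among the carriers ran from controls 1 and 4 to control 3. In 12 of the 35 tested carriers (34.3%) controls 1 and 4 lay above all other 5 libraries, a smaller share than the 51.5% of all tested genes. These were Slc25a3, Slc25a4, Slc25a14, Slc25a22, Slc25a25, Slc25a26, Slc25a28, Slc25a30, Slc25a36, Slc25a38, Slc25a39 and Slc25a46. In 0 carriers did both lie below the rest, against 4.45% of all genes. Against controls 2 and 3 alone, both were above in 15 carriers (42.9%) and below in 2, against 65.0% and 8.04% of all tested genes. The part of the Kupffer cell, stellate cell and globin signal of these libraries in the carriers' values was not tested. The first principal component of the 35 carriers held 52.9% of their variance and placed controls 1 and 4 at 1.86 and 2.05, control 3 at -1.78, control 2 at -0.08 and the oligo-1 libraries at -1.05 to -0.37. Without controls 1 and 4, 2 carriers were higher (Slc25a45 and Slc25a27) and 1 lower (Slc25a51) at an unadjusted p below 0.05, where 6.97% and 2.75% of all genes were, and 0 carriers passed the adjusted test, against 0.00956%. In whole liver, fewer cells of a type and less RNA per cell cannot be told apart.

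**Figure D5:**
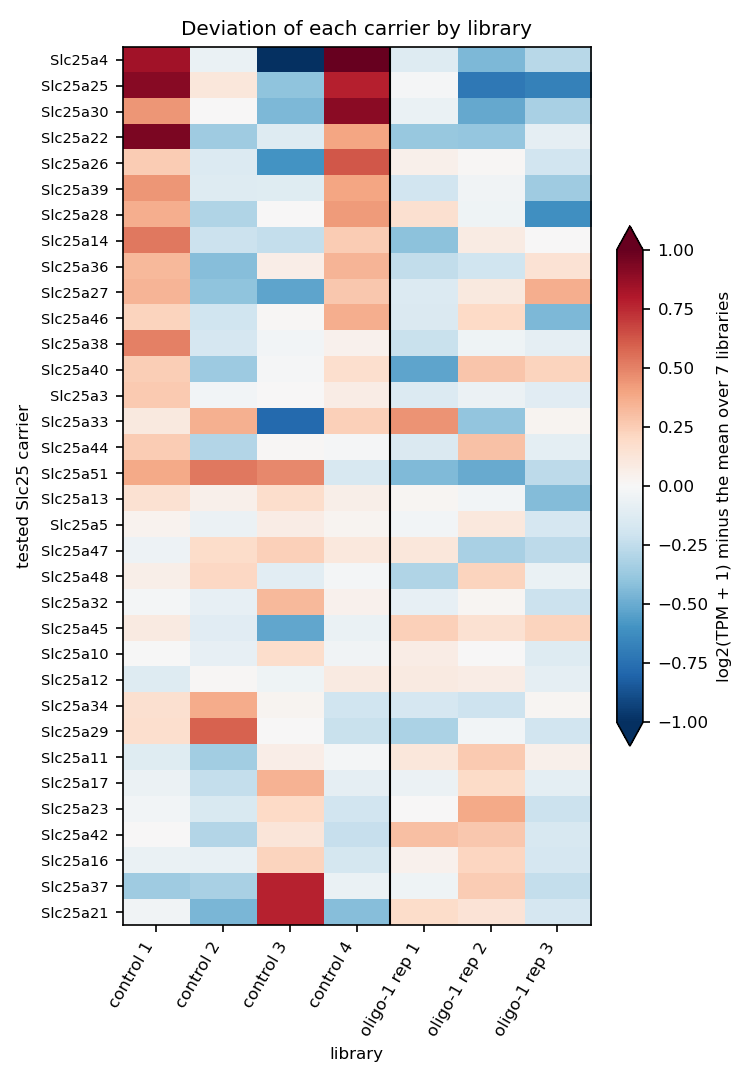
Deviation of log2(TPM + 1) from its mean over 7 libraries for 34 tested carriers, ordered from those highest in controls 1 and 4 (top) to those lowest there, with a line between control oligo and oligo-1 and colours capped at ±1. Controls 1 and 4 share the red upper block, control 3 is high for Slc25a37 and Slc25a21, and Slc25a51 is lower in all 3 oligo-1 libraries than in each control.

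Other transport genes of mitochondria were set beside the carriers taken by symbol. The uncoupling proteins, Mtch1 and Mtch2 stand in this list only because their symbols do not start with Slc25a. It is therefore not free of members of the same protein family. Of 22 tested genes of the pyruvate carrier, sideroflexins, porins, calcium uniporter, uncoupling proteins, mitochondrial ABC transporters and related membrane proteins, 0 were at an unadjusted p below 0.05, and the median log2 fold change was -0.21. Mpc1, a subunit of the pyruvate carrier, was at -0.27 (SE 0.17). Ucp2, an uncoupling protein, was at -0.92 (SE 0.49). Its level was 31.8 and 40.0 TPM in controls 1 and 4, 15.4 and 6.84 TPM in controls 2 and 3, and 9.40 to 10.3 TPM with oligo-1. Fitted values were below 0 for 18 of the 22 and above 0 for 4, among them Sfxn5 at 0.43 (SE 0.24) and Abcb10 at 0.35 (SE 0.21). Of 15 tested genes that import carrier proteins, 0 were at an unadjusted p below 0.05, with a median of -0.26. Tomm20, a receptor of the outer membrane, was at -0.37 (SE 0.17) and Timm22, the channel that inserts carriers, at -0.39 (SE 0.21). Both medians lay below those of the Slc25 carriers (-0.12) and of all genes (-0.16), and the differences between lists were not tested.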

How the data were processed

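The authors extracted total RNA with TRIzol, made libraries by standard Illumina methods and quantified protein-coding genes with kallisto (version not given in the sources used here); the submitters' notes name mm10. The deposited values are TPM, scaled by the authors to 1000000 per library, of which the listed genes held 85.8% to 88.3%. TPM keep no depth, so no counting interval is given. Values were transformed to log2(TPM + 1), genes with at least 1 TPM in at least 3 libraries were kept (10455), and oligo-1 was compared with control oligo by limma-trend (limma 3.58.1, R 4.3.3, 2-sided, no covariate, Benjamini-Hochberg over all genes, threshold 0.05). The edgeR test of the study needs counts and was not used. The procedure was tested on simulated data.

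Groups came from the library names. Positions are from GENCODE M21 (mm10) and promoter windows from RefSeq. Values per library were given for the 10 carriers of smallest p, the 6 of highest mean and the mitoferrin and adenine nucleotide pairs. Members and lists were chosen with earlier results of these data known. Alternatives were TMM-type scaling, other filters, a pseudocount of 0.1, no trend, a replicate block, each library left out, and no controls 1 and 4. Reads shared with Slc25a5-ps, a pseudogene, could affect Slc25a5. Of the tested carriers, 1 is counted in the family's totals but is not reported here on its own.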

Additional observations from a re-analysis of the deposited data

How the results depend on the processing

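No carrier was called at an adjusted p below 0.05 by limma in any of the 14 alternatives. TMM-type scaling gave 2 carriers higher (Slc25a45 and Slc25a11) and 1 lower (Slc25a25) at an unadjusted p below 0.05, against 4.65% and 3.86% of all genes, 2 with all oligo-1 libraries above all controls and 0 with all below, against 4.86% and 4.75%, and a median log2 fold change of 0.0467. It also turned 4 small values, to 0.00060 for Slc25a3, 0.13 for Slc25a5, 0.15 for Slc25a10 and 0.14 for Slc25a37. Its cause was not tested. Without controls 1 and 4, 2 carriers were higher and 1 lower, 2 lay above and 6 below both remaining controls (17.9% and 7.74% of all genes), Slc25a4 was at 0.33, and the difference in the log2 ratio of Slc25a18 to Slc25a22 was -0.21. With any 1 library left out, the lower carriers numbered 1 to 4, those above all controls 1 to 3 (3 without oligo-1 replicate 3, 2 without control 3) and those below 3 to 6. Over all genes the share lower ran from 1.77% to 14.5% in the same fits, the share above from 2.58% to 4.22% and the share below from 5.24% to 20.7%, so these counts are no result about the carriers. The lower count was 4 without control 3, and 1 without control 1, without control 4, or without the second or the third oligo-1 library. The count below was 6 without control 3 and 5 without control 4 or oligo-1 replicate 1. In these fits Slc25a5 ranged from -0.12 to 0.019, Slc25a10 from -0.078 to 0.025 and Slc25a37 from -0.15 to 0.24. The difference in the log2 ratio of Slc25a34 to Slc25a35, where Slc25a35 was under 1 TPM, was -0.38 on TPM + 1 and -0.74 with a pseudocount of 0.1. Of 180 alternative values for 15 carriers, 169 kept their direction and side of the threshold. These include repeats, so the count overstates how far the values were tried. The fit without the low-value filter repeats the main fold changes, and the replicate block repeats those without control 4. No carrier passed the adjusted threshold in any fit, so only the direction differed.

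The replicate block used the numbers in the labels. Deviations of same-numbered libraries correlated at 0.0777, -0.0154 and -0.115, so the numbers were not read as pairs. Control 4 has no oligo-1 library of the same number, so under the block it adds nothing to the comparison. The fold changes are therefore those of the fit without control 4, with other standard errors. With the block 0 carriers were called, 0 were higher and 2 lower at an unadjusted p below 0.05, and the median was -0.10. Over all genes 0.823% were called, 2.13% were higher and 3.04% lower. TPM without read counts limit what can be said of carriers near 1 TPM.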

Other observations

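Control 3 differed from the other controls in several carriers that controls 1 and 4 do not separate. Slc25a21, the oxoadipate carrier of lysine breakdown, reached 8.50 TPM there, against 3.04 to 4.42 TPM for controls 1, 2 and 4. Slc25a33, a carrier of pyrimidine nucleotides, stood at 9.28 TPM there, against 17.8 to 21.6 TPM for its group mates. Control 3 was also the library with the fewest genes above 0 TPM (13046), and the part of this in its values was not tested. These carriers were chosen after their values were seen, and no test was run on them.

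Some carrier genes are neighbours in mm10, with gaps measured between the gene extents of GENCODE. Slc25a41 and Slc25a23 lie 2056 bases apart on chromosome 17, at 0 and 64.0 TPM. Slc25a43 and Slc25a5 lie 18448 bases apart on chromosome X, at a listed mean of 0.0498 and 414.3 TPM.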
